A study of Mus musculus with 6 samples.

Results

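The core circadian clock genes of the mouse aorta were examined on 6 single-colour oligonucleotide arrays, 3 of apoE-/- mice and 3 of wild-type (WT) mice. The set was Arntl (also called Bmal1), Clock, Npas2, Per1, Per2, Per3, Cry1, Cry2, Dbp and Tef, chosen by name as every probe set that the array annotation assigns to one of these symbols. This gave 25 of the 45101 probe sets and 10 of the 13031 genes that could be tested, and 23 of the 25 probe sets passed the filter on low intensity. Both groups were on the C57BL/6J background and aged 32 weeks, and total RNA was taken from the aorta. The apoE-/- mice lack apolipoprotein E, a carrier of plasma lipoproteins, and are a strain known for high plasma cholesterol and atherosclerotic plaques. The labels name no treatment or diet for either group. They also give no hour of tissue collection and no light cycle, and do not say whether an array stands for 1 animal or a pool, and the p-values below therefore speak of the scatter among these 6 arrays alone, part or all of which may be technical.

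The clock is a feedback loop of transcription that runs in nearly every cell. In its positive limb ARNTL pairs with CLOCK, or with the CLOCK relative NPAS2, and the pair drives genes through E-box elements. The negative limb consists of the PER and CRY proteins, which are driven by that pair and then repress it, so that transcripts of the limbs peak at different times of day. DBP and TEF, transcription factors of the PAR bZIP family, are outputs of the E-box drive and act on D-box elements, and the NR1D and ROR nuclear receptors act on Arntl and Npas2 through elements called RRE. In the vessel wall this clock is known for daily rhythms of tone and coagulation factors. A difference in collection time between groups would be expected to move Arntl and Npas2 one way and Per and Dbp transcripts the other, and whether the genotypes differed in that manner was the question put to these arrays.

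Intensities were on one linear scale in arbitrary units, with medians of 178.0 to 195.5 units per array. Apoe itself, the gene disrupted, read 239.5, 56.3 and 462.1 units on the apoE-/- arrays, against 5685.6, 5625.2 and 4309.1 units on the WT arrays, which matched the labels. Smooth muscle markers, the defining genes of the labelled tissue, summed to 57189 to 70577 units over 7 genes on the apoE-/- arrays and 64446 to 74001 units on the WT arrays. One library stood apart in the clock genes. By the brightest kept probe set of each gene, WT replicate 2 held the lowest value of all 6 arrays for 4 of the 10 genes and the highest for the other 6. The genotype differences of the members, the list medians and the spread within genotypes are therefore given with that array and without it.

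No clock gene passed the test between the genotypes. In limma 0 of 10 members passed an adjusted p under 0.05, where 3.63% of all genes tested did (3.15% higher and 0.483% lower in apoE-/-), and 0 of 23 member probe sets did in a fit over probe sets (2.72% of all). At an unadjusted p under 0.05 there was 1 member, Per2, and 1 of its probe sets, where 18.4% of all genes stood. An ordinary two-sample statistic had 0 members at that level, against 2069 of all 13031 genes. The apoE-/- and WT values overlapped for every member, while 24.6% of all genes had groups that did not overlap. The adjusted p of the members lay between 0.227 and 0.999. Standard errors ran from 0.14 to 0.51 on the log2 scale, above the median of all genes (0.15) for 9 of the 10, so the failure to pass does not show that the genotypes were alike.

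The limbs did not separate by genotype. On the log2 scale the difference, apoE-/- minus WT, was -0.05 at the median of the 3 positive-limb genes (from -0.16 to 0.10). It was -0.07 at the median of the 5 negative-limb genes (from -0.69 to 0.12), and -0.38 and -0.39 for the PAR bZIP genes. Over all genes tested the median was -0.05. Without WT replicate 2 the 3 positive-limb genes lay at -0.60 to -0.32 with a median of -0.32, and the negative-limb genes spanned -0.40 to 0.60, with a median of -0.12. The PAR bZIP genes then stood at 0.23 and -0.07, the median of all genes was -0.06, and again 0 members passed, against 2.33% of all genes. At an unadjusted p under 0.05 there were then 3 members, Clock and Npas2 below 0 and Per3 above 0, against 17.1% of all genes. Leaving that array out thus moved Arntl to the negative side and Dbp to the positive side, while Per1 and Per2 stayed on the negative side with the positive-limb genes.

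**Figure D1:**
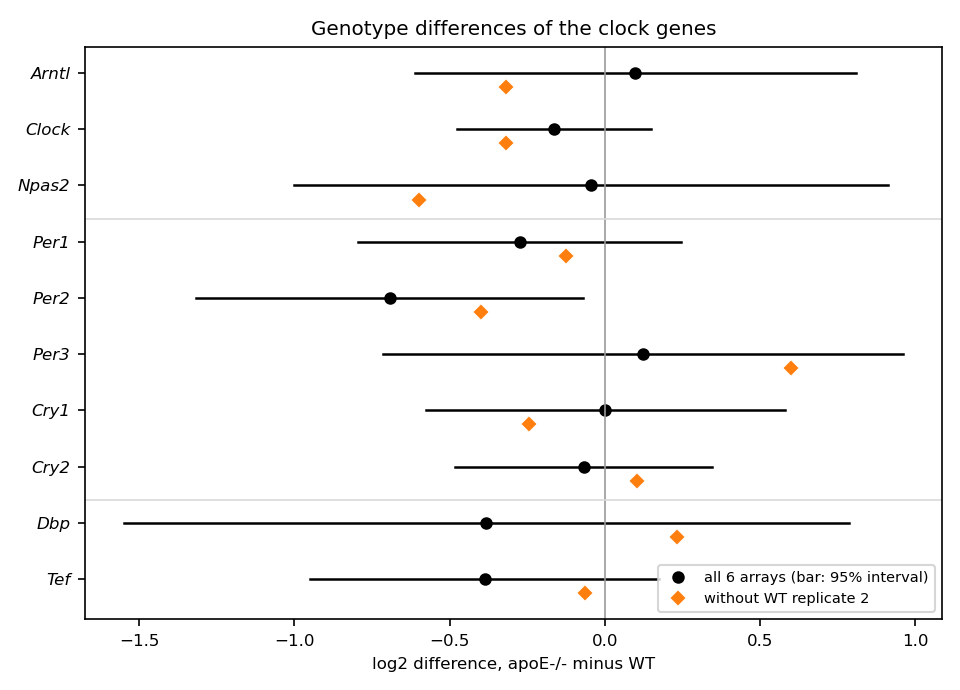
Log2 difference of each clock gene, apoE-/- minus WT, with black points for all 6 arrays, bars for the 95% interval of the limma fit and orange diamonds for the fit without WT replicate 2. The interval of Per2 (-1.32 to -0.07) is the only one of the 10 that leaves out 0, and the points of Arntl, Cry1, Cry2 and Dbp change sign without WT replicate 2.

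Arntl, whose product is the obligate partner in the positive limb, is shown with a match to the RRE, the element named above for it. Of the 2 windows listed for it in the RefSeq promoter table (GRCm38.p6, 250 bases before to 50 after a transcript start), the second, at chr7:113207261-113207560 on the plus strand, held a match to TAGGTCA. Capitals mark that match, which was searched on both strands and overlapped no other motif searched. It begins 31 bases into the transcript.
Arntl promoter: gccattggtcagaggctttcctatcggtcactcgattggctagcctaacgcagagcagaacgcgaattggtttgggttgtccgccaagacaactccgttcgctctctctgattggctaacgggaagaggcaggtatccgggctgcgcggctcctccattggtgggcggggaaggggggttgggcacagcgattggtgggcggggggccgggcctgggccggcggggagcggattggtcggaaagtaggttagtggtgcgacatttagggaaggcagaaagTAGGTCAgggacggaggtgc
Such a match occurred in 2.61% of all 32851 windows of that length, and is a match of letters, not a measured site.

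Arntl read 973.1, 1188.1 and 1017.1 units on the apoE-/- arrays, against 1159.5, 545.5 and 1504.4 units on the WT arrays. The apoE-/- values lay close together and inside the WT range, whose lowest array was WT replicate 2 and whose highest was WT replicate 3. The mean was 1059 ± 114 units in apoE-/- and 1070 ± 486 units in WT (SD, n = 3 each), a log2 difference of 0.10 ± 0.31 (SE, 95% interval -0.61 to 0.81, adjusted p = 0.900). Without WT replicate 2 it was -0.32 ± 0.15 (adjusted p = 0.316). A dimmer Arntl probe set read 232.3, 289.7 and 189.3 units in apoE-/- and 228.3, 257.3 and 309.0 units in WT. This one did not have its low value on WT replicate 2.

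Npas2, which can stand in for Clock as the Arntl partner, shared its highest and lowest arrays with Arntl, over a wider range. It read 530.4, 866.4 and 538.0 units on the apoE-/- arrays, against 910.9, 293.1 and 1009.8 units on the WT arrays. WT replicate 2 was the lowest of the 6 arrays and the other WT arrays were the highest, so the apoE-/- arrays lay between. The log2 difference was -0.05 ± 0.42 (SE, 95% interval -1.002 to 0.91, adjusted p = 0.965), and -0.60 ± 0.21 without WT replicate 2 (adjusted p = 0.213). It turned positive when WT replicate 3 (0.27), WT replicate 1 (0.19), apoE-/- replicate 1 (0.07) or apoE-/- replicate 3 (0.06) was left out, so no direction can be given. A further Npas2 probe set, at 195.9, 307.4 and 245.1 units in apoE-/- and 271.4, 130.0 and 299.6 units in WT, also had its low value on WT replicate 2.

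Clock, the positive-limb gene known for a flat rhythm in peripheral tissue, varied least of the members. Its brightest probe set read 1081.5, 1139.7 and 1087.0 units in apoE-/- aorta, against 1422.3, 996.0 and 1336.1 units in WT aorta. WT replicate 2 was again the lowest, by a small margin. In log2 the difference was -0.16 ± 0.14 (95% interval -0.48 to 0.15, adjusted p = 0.573) and -0.32 ± 0.10 without WT replicate 2 (adjusted p = 0.178), and was below 0 in every alternative run. The 3 other Clock probe sets did not move as one, and WT replicate 2 was the lowest array on none of them. Differences of -0.08 ± 0.14 and -0.22 ± 0.15 were seen for those of middle brightness, and 0.26 ± 0.14 for the dimmest. That dimmest set read 366.2, 397.6 and 365.2 units in apoE-/- and 275.7, 320.8 and 340.1 units in WT, and was the 1 member probe set of 23 whose groups did not overlap, beside 22.7% of all probe sets, with an adjusted p of 0.398.

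**Figure D2:**
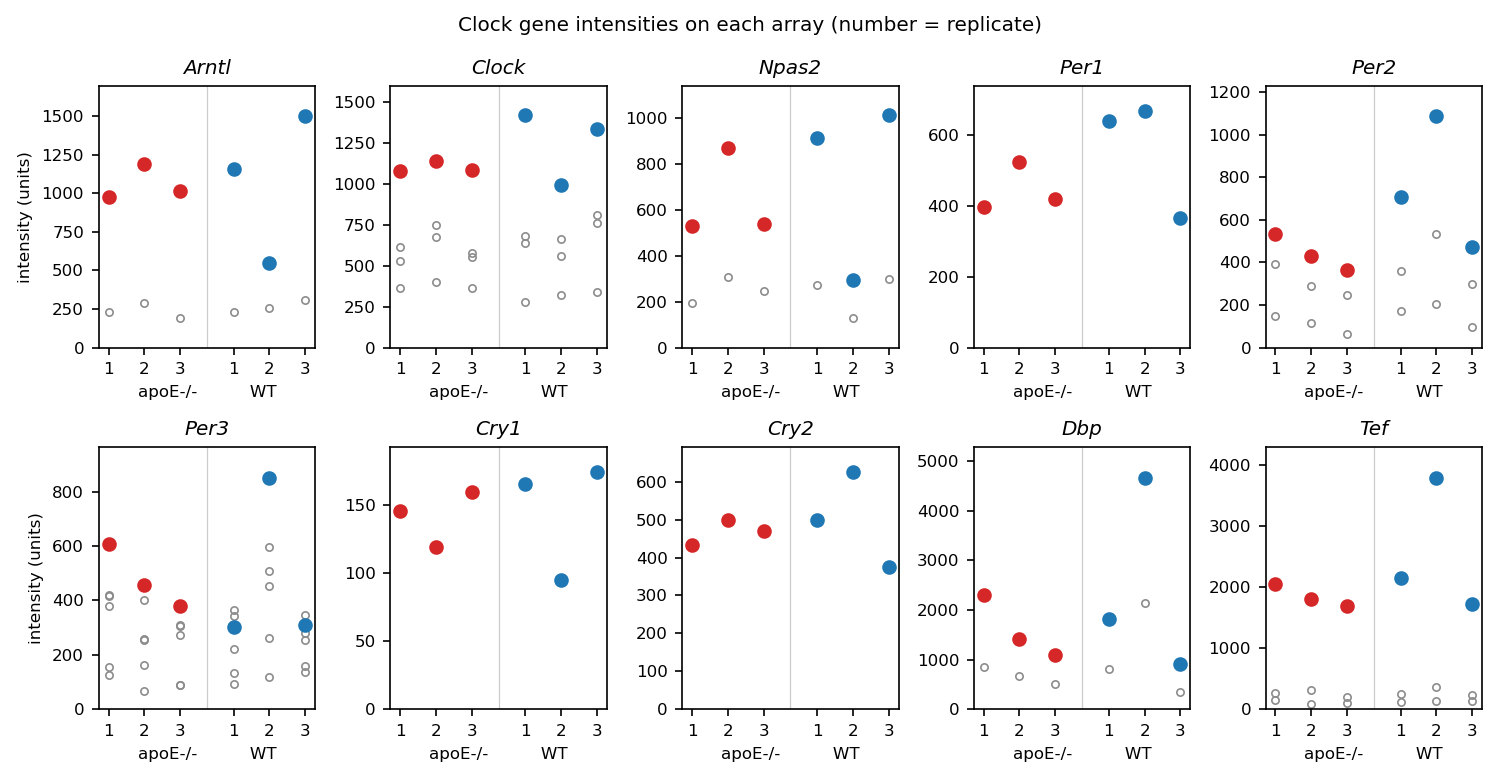
Intensity in units, on linear axes from 0, of every probe set of the 10 clock genes on the 3 apoE-/- arrays (left, red) and 3 WT arrays (right, blue), with filled points for the probe set used for the gene and open grey circles for its other probe sets. WT replicate 2 is the lowest filled point of Arntl (545.5), Clock (996.0), Npas2 (293.1) and Cry1 (95.1) and the highest of the other 6 genes.

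In the negative limb, windows of Per1 and Per3 held matches to the E-box and to the D-box. The first Per1 window, at chr11:69098699-69098998 on the plus strand, held the E-box CACGTG, which reads alike on both strands, with its first base 166 bases before the start. The Per3 window, at chr4:151044616-151044915 on the minus strand, held 2 matches to the D-box TTANGTAA, beginning 205 and 158 bases before the start. Capitals mark the matches, and none overlapped another motif searched.
Per1 promoter: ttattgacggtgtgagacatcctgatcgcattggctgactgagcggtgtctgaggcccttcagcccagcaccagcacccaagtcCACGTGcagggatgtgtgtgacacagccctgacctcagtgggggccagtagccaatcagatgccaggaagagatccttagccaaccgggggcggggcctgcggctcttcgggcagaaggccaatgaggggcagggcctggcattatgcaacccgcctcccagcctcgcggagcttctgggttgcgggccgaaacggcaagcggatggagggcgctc
Per3 promoter: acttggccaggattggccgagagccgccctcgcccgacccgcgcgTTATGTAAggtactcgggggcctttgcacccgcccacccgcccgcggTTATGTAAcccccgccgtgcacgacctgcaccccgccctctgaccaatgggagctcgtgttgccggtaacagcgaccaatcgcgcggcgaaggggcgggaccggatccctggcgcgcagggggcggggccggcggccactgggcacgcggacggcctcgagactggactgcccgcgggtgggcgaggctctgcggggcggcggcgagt
CACGTG occurred in 7.15% of all windows and TTANGTAA in 2.32%. Per2 has no window in that table.

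Per2, a rhythmic inhibitor of the ARNTL pair, had the smallest p of the members. It read 534.9, 428.9 and 362.5 units in apoE-/- aorta, against 709.5, 1086.6 and 474.5 units in WT aorta. Only WT replicate 3 lay within the apoE-/- range. The means were 442 ± 87.0 units in apoE-/- and 757 ± 309 units in WT (SD, n = 3 each), with a log2 difference of -0.69 ± 0.27 (SE, 95% interval -1.32 to -0.07, adjusted p = 0.227). The difference was -0.40 ± 0.22 without WT replicate 2 (adjusted p = 0.401) and -0.98 ± 0.23 without WT replicate 3 (adjusted p = 0.0891), the lowest adjusted p of any member in any alternative run. Both other Per2 probe sets were on the negative side too, at -0.46 ± 0.33 and -0.33 ± 0.24, and WT replicate 2 was highest on all 3.

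Per1, which also responds quickly to glucocorticoids and to neural or stress signals, had 1 probe set. It read 395.8, 524.5 and 418.3 units in apoE-/- and 638.9, 668.2 and 365.9 units in WT. WT replicates 1 and 2 were above all apoE-/- arrays, and WT replicate 3 was below them. On the log2 scale the genotypes differed by -0.27 ± 0.23 (95% interval -0.80 to 0.25, adjusted p = 0.572), and -0.12 ± 0.24 without WT replicate 2 (adjusted p = 0.842). It was -0.55 ± 0.16 without WT replicate 3, with an adjusted p of 0.184.

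Per3, a member of the family with a weaker part in the loop itself, had 6 probe sets, of which 5 passed the filter. The brightest read 608.6, 455.7 and 379.2 units in apoE-/- and 302.2, 852.7 and 310.2 units in WT. Every apoE-/- value lay between the high WT replicate 2 and the other WT arrays. The log2 difference was 0.12 ± 0.37 (95% interval -0.71 to 0.96, adjusted p = 0.892), and 0.60 ± 0.21 without WT replicate 2 (adjusted p = 0.202). WT replicate 2 was the highest array on all 5 kept probe sets, at 1.19 to 1.61 times the next highest. The differences of the other 4 ran from -0.34 to 0.07, so the probe sets gave no common direction for the genotype. The sixth read only 67.1 to 126.0 units in apoE-/- and 93.3 to 157.3 units in WT and was not tested.

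Cry1, a strong repressor that is known to peak later than the Per genes, carries an E-box in its RefSeq window at chr10:85185005-85185304 on the minus strand. Its first base is 60 bases before the start, and capitals mark it.
Cry1 promoter: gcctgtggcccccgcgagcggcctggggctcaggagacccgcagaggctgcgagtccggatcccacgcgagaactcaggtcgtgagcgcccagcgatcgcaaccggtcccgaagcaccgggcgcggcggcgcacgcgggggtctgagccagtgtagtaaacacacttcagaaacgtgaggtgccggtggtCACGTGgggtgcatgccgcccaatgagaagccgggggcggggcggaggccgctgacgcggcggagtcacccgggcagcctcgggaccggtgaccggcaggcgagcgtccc
Cry1 read 145.5, 119.1 and 159.7 units in apoE-/- and 165.2, 95.1 and 174.0 units in WT. Its low array was WT replicate 2, as for the positive limb and unlike the Per genes. The fitted log2 difference was 0.001 ± 0.25 (95% interval -0.58 to 0.58, adjusted p = 0.999) and -0.25 ± 0.22 without WT replicate 2 (adjusted p = 0.625). Its geometric mean was near the filter, which kept probe sets above 119.1 units, and it was removed by the stricter filter.

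Cry2, the other cryptochrome, read 434.5, 498.8 and 471.0 units in apoE-/- and 500.6, 627.1 and 376.5 units in WT. All apoE-/- values stood within the WT range, with WT replicate 2 highest and WT replicate 3 lowest. In log2 the difference was -0.07 ± 0.18 (95% interval -0.48 to 0.34, adjusted p = 0.875) and 0.10 ± 0.17 without WT replicate 2 (adjusted p = 0.806).

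Dbp, the D-box activator whose transcript swings most widely in many tissues, also varied most here. It read 2294.7, 1406.7 and 1088.5 units in apoE-/- aorta, against 1822.5, 4669.9 and 916.1 units in WT aorta. WT replicate 2 was 2.04 times the next highest array, and WT replicate 3 was the lowest of the 6. The means were 1597 ± 625 units in apoE-/- and 2470 ± 1959 units in WT (SD, n = 3 each), a log2 difference of -0.38 ± 0.51 (95% interval -1.55 to 0.79, adjusted p = 0.736). Without WT replicate 2 it was 0.23 ± 0.34 (adjusted p = 0.782) and without WT replicate 3 it was -0.93 ± 0.41 (adjusted p = 0.359), so the sign followed the choice of WT arrays. The second Dbp probe set gave 849.9, 676.9 and 507.8 units in apoE-/- and 806.6, 2143.1 and 343.8 units in WT, in the same order of arrays as the first, with WT replicate 2 at 2.52 times the next highest array.

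Tef, the relative of Dbp, has an E-box in both RefSeq windows listed. The second, at chr15:81811164-81811463 on the plus strand, is shown with the E-box in capitals, 138 bases before the start.
Tef promoter: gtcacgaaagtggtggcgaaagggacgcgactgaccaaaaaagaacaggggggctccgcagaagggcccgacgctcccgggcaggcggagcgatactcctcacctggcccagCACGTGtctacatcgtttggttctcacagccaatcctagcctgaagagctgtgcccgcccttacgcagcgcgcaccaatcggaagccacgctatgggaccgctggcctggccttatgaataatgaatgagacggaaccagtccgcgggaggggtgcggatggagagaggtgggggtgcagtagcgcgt
Tef read 2051.5, 1804.5 and 1694.5 units in apoE-/- and 2152.3, 3788.0 and 1730.4 units in WT. Apart from WT replicate 2, at 1.76 times the next highest array, the arrays lay close together. The log2 difference was -0.39 ± 0.25 (95% interval -0.95 to 0.17, adjusted p = 0.455), and -0.07 ± 0.13 without WT replicate 2 (adjusted p = 0.851). A further kept probe set gave -0.12 ± 0.23 with WT replicate 2 highest, and the third, at 87.6 to 142.3 units in apoE-/- and 123.4 to 133.6 units in WT, was not tested. The 9 members with a window had 14 windows. Of these, 4 held an E-box, 1 a D-box and 1 an RRE, where 7.15%, 2.32% and 2.61% of all windows did. At least 1 motif was found for 5 of the 9 members, and none for Clock, Npas2, Cry2 or Dbp. The share of all genes with any match was not computed.

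The limbs moved apart most widely on a single array, WT replicate 2. The pattern was noticed in the values and is given as a description, with no test. The array was the highest of the 6 for Per1, Per2, Per3, Cry2, Dbp and Tef, where it was highest for 18.9% of all genes. It was the lowest for Arntl, Clock, Npas2 and Cry1, where it was lowest for 19.5% of all genes. These places are those of the probe set used for each gene. Over all 25 member probe sets that array was highest on 14 and lowest on 5. None of the other Arntl and Clock probe sets was lowest on it. By a margin of over 1.5 times the nearest other array, it was highest for Per2, Dbp and Tef (1.24% of all genes) and lowest for Arntl and Npas2 (1.04% of all genes). No other array was highest or lowest by that margin for any member. The mean log2 deviation from the 6-array mean on WT replicate 2 was -0.73 over the positive limb, 0.43 over the negative limb and 1.13 over the PAR bZIP genes, while over all genes it was -0.02. Within the negative limb it was 0.76 over the 3 Per genes and -0.06 over the 2 Cry genes, Cry1 being low there (-0.49) and Cry2 high (0.38).

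WT replicate 3 lay on the opposite side with smaller deviations. Its means were 0.47 over the positive limb, -0.24 over the negative limb (-0.39 over the Per genes and -0.03 over the Cry genes) and -0.60 over the PAR bZIP genes. It held the highest value of Arntl, Npas2 and Cry1 and the lowest of Per1, Cry2 and Dbp. On the apoE-/- arrays the positive limb stood at -0.15, 0.21 and -0.12, the Per genes at 0.02, -0.09 and -0.36 and the PAR bZIP genes at 0.18, -0.26 and -0.49 for replicates 1, 2 and 3. All of these lay between the values of WT replicates 2 and 3. On apoE-/- replicate 3 both limbs were below the mean, and the PAR bZIP genes with them.

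**Figure D3:**
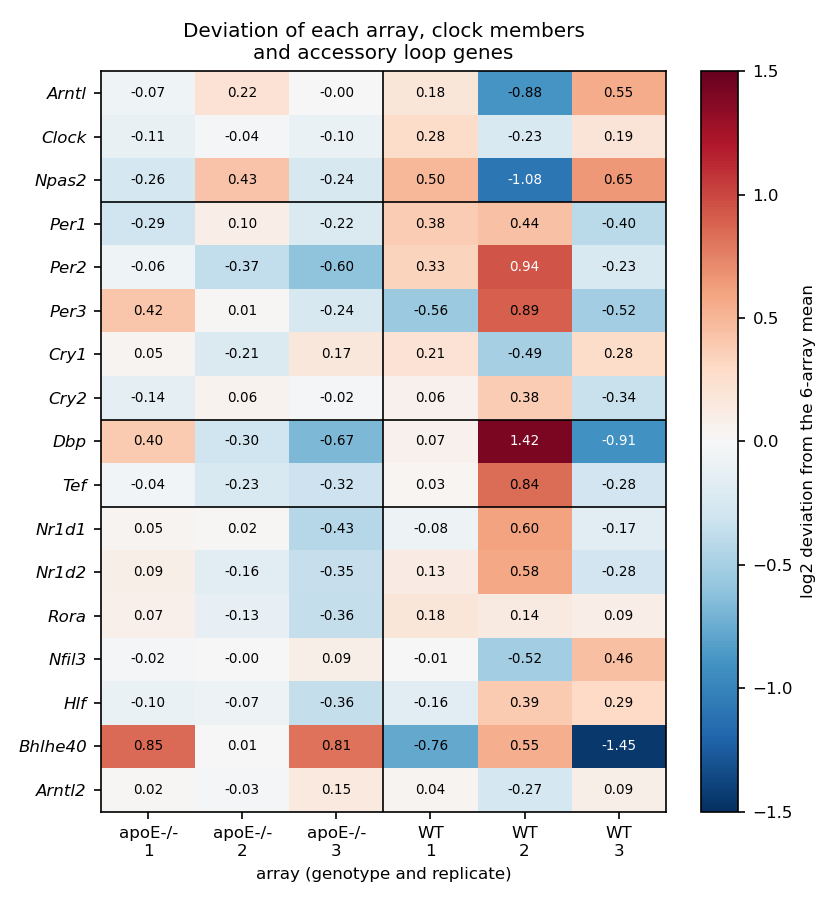
Log2 deviation of each array from the mean of all 6, for the 10 clock genes and the 7 accessory loop genes tested, with apoE-/- arrays left and WT arrays right (red above the mean, blue below, numbers printed in the cells). WT replicate 2 is low for Arntl (-0.88) and Npas2 (-1.08) and high for Per2 (0.94) and Dbp (1.42).

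The members differed more among the WT arrays than among the apoE-/- arrays, for 10 of 10 genes, against 48.2% of all genes. The range of Dbp over 3 arrays was 1.06 log2 units in apoE-/- and 2.33 in WT, 2.11-fold and 5.10-fold. In WT it ranked 31 of 13031 genes by that range, Npas2 ranked 87, Per3 157, Arntl 164, Per2 320 and Tef 366. In apoE-/- the highest rank of a member was that of Dbp, at 392, and Arntl ranked 7064. The 95th percentile of the range over all genes was 0.90 in apoE-/- and 0.92 in WT, and it was passed by 1 member in apoE-/- and by 6 in WT. That difference in spread was not tested. It rests in part on WT replicate 2. Between the other WT arrays the range was wider than over the 3 apoE-/- arrays for 6 of 10 members (Arntl, Clock, Per1, Per2, Cry2 and Tef), against 24.9% of all genes, and narrower for Dbp (1.06 in apoE-/-, 0.98 in WT), Npas2 (0.69 and 0.15), Per3 (0.66 and 0.04) and Cry1 (0.38 and 0.07). A range over fewer arrays is narrower by construction, which the SD allows for only in part. By the SD, WT exceeded apoE-/- for 7 of 10 members and 35.1% of all genes. Per1 and Dbp were then the members above the 95th percentile of the WT range (0.60).

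**Figure D4:**
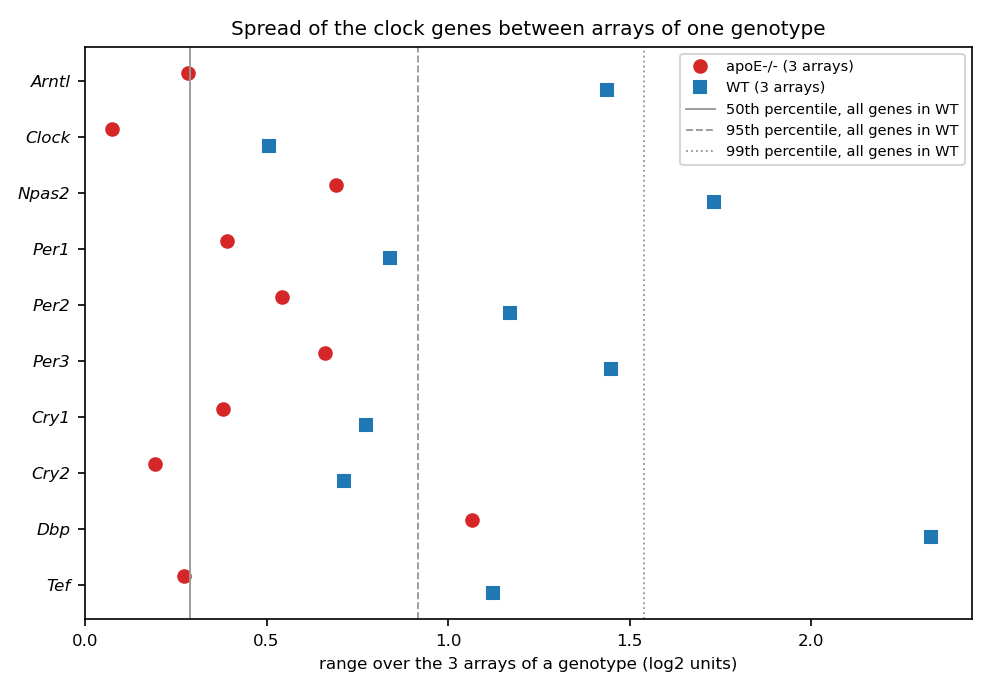
Range of each clock gene over the 3 apoE-/- arrays (red circles) and the 3 WT arrays (blue squares) in log2 units, with vertical lines for the 50th, 95th and 99th percentile of the range over all genes in WT. All 10 WT squares lie right of the 50th percentile (0.29), and those of Dbp (2.33) and Npas2 (1.73) lie beyond the 99th (1.54).

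Some other genes also had extreme values on WT replicate 2. Brown adipocyte markers summed to 16041, 10715 and 12036 units over 6 genes on the apoE-/- arrays, against 12416, 27160 and 18076 units on the WT arrays. All 6 were highest on WT replicate 2, as were 18.9% of all genes. WT replicate 3 had the second highest sum, and it also had the lowest Dbp value. The lowest value among the markers was 184.1 units, for Ppargc1a. Immediate early genes, which respond to handling of tissue among other stimuli, summed to 25661, 32694 and 22468 units on the apoE-/- arrays and 24638, 16665 and 30686 units on the WT arrays. On WT replicate 2, 8 of 13 were lowest and 0 highest, where 19.5% of all genes were lowest and 18.9% highest. Sums of white adipocyte markers (30011 units over 3 tested genes, next highest 26512) and smooth muscle markers (74001 units, next highest 70577) were also highest on that array. The T and B cell sum was lowest there (406 units, next lowest 432). Skeletal muscle, macrophage, endothelial and fibroblast sums had other arrays as highest and lowest. Skeletal muscle markers summed to 532 to 660 units in apoE-/- and to 1006, 1102 and 11819 units in WT, with WT replicate 3 far above the others. Macrophage markers, of which 7 of 8 rose (3.15% of all genes), summed to 36493 to 53404 units in apoE-/- and 12826 to 14327 units in WT. Trem2, among the 7, read 17.0, 30.7 and 34.0 units in WT, below the filter level of 119.1 units. It was tested only because of its apoE-/- values. Beta-actin controls, as a measure of RNA integrity, had 3′ over 5′ ratios of 1.15 to 1.16 in apoE-/- and 1.16 to 1.21 in WT. The highest of these ratios were on WT replicate 2 (1.209) and WT replicate 1 (1.205). Gapdh controls had ratios of 0.816, 0.705 and 0.752 in apoE-/- and 0.775, 0.765 and 0.736 in WT, highest on apoE-/- replicate 1. The part of these features in the clock values was not tested, and in bulk tissue fewer cells of a type cannot be told apart from less RNA per cell.

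The accessory loops gave 0 of 7 tested genes called, of 11 listed, where 3.63% of all genes were called. Their median log2 difference was -0.24. Without WT replicate 2 it was -0.06 and 1 gene was called (Bhlhe40), against 2.33% of all genes. Nr1d1, a nuclear receptor that represses Arntl, read 1386.9, 1364.0 and 995.5 units in apoE-/- and 1273.1, 2051.2 and 1189.6 units in WT (log2 difference -0.24 ± 0.21, adjusted p = 0.603). Nr1d2, its relative, read 3836.4, 3223.6 and 2827.8 units in apoE-/- and 3942.4, 5402.6 and 2964.6 units in WT (-0.28 ± 0.20, adjusted p = 0.510). Both were highest on WT replicate 2. Nfil3, a repressor that competes with DBP at D-boxes, was lowest there, at 180.7 units against 262.5 to 371.0 units on the other arrays, with a difference of 0.05 ± 0.24 (adjusted p = 0.936). Without WT replicate 2 the differences were 0.005 for Nr1d1, -0.06 for Nr1d2 and -0.20 for Nfil3. These genes, like the members, were named with their values known.

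Ciart, a repressor of the ARNTL pair also called Chrono, was below the filter and was not tested. It read 38.2, 45.2 and 41.2 units in apoE-/- and 42.1, 265.5 and 43.0 units in WT. WT replicate 2 was the one array above the filter level of 119.1 units, and with no detection calls the other 5 may be background alone, so no fold is given. The activator Rora had a difference of -0.27 ± 0.12 (adjusted p = 0.270), and WT replicate 2 was not its extreme array.

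Bhlhe40, an E-box repressor that is also induced by inflammation and hypoxia, had the smallest p of this list. It read 1816.9, 1002.0 and 1761.7 units in apoE-/- and 581.9, 1464.6 and 355.3 units in WT. WT replicate 2 lay among the apoE-/- arrays, above the other WT arrays. The log2 difference was 1.11 ± 0.45 (adjusted p = 0.237), and 1.66 ± 0.29 without WT replicate 2, where it passed (adjusted p = 0.0250). Macrophage marker sums, given above, moved with it by genotype, and their part was not tested.

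Of 15 tested kinases, ligases and partners of the clock proteins, 0 were called, where 3.63% of all genes were. Their median log2 difference was -0.03 (-0.09 without WT replicate 2). Gsk3b, a kinase of clock proteins, had the smallest p, at 1613 ± 102 units in apoE-/- and 1994 ± 88.0 units in WT (SD, n = 3 each, adjusted p = 0.123). Its log2 difference was -0.305, and -0.095 in the limma fit on the median of its probe sets (adjusted p = 0.693). Of 15 tested rhythmic outputs of peripheral tissues, 0 rose and 2 fell, where 3.15% of all genes rose and 0.483% fell. Their median was -0.37, and -0.20 without WT replicate 2, on which 10 of the 15 were highest, as were 18.9% of all genes. One of the falls was Hsph1, a heat shock protein, with 2176.6, 1853.1 and 1918.6 units in apoE-/- and 3574.3, 3576.1 and 2650.7 units in WT (-0.71 ± 0.13, adjusted p = 0.0251). Here the groups did not overlap and WT replicates 1 and 2 were alike. The call was lost without WT replicate 1 (adjusted p = 0.0929), WT replicate 2 (0.0687), apoE-/- replicate 1 (0.0625), apoE-/- replicate 2 (0.0507) and apoE-/- replicate 3 (0.104), and also with median centring (0.0535), no intensity trend (0.0634) and the ordinary statistic (0.220).

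The other fall was Usp2, a deubiquitinase driven by the clock in many tissues. It read 152.3, 172.5 and 162.5 units in apoE-/- and 302.0, 302.1 and 248.9 units in WT (-0.75 ± 0.16, adjusted p = 0.0431). The WT arrays were all above the apoE-/- arrays, WT replicate 2 not standing apart. A dimmer Usp2 probe set had a difference of only -0.18 ± 0.19, and the call was lost when any single array was left out (adjusted p from 0.0543 to 0.150) and in 6 of the other alternatives, the replicate block among them (adjusted p from 0.0528 to 0.184). Tspan4, another output, was not called at 0.52 ± 0.14 (adjusted p = 0.102) but passed without WT replicate 2 (0.65, adjusted p = 0.0392).

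Of 17 genes induced by glucocorticoids, hormones that also act on Per1, 1 rose and 1 fell, again where 3.15% of all genes rose and 0.483% fell, with a median of -0.11 (-0.06 without WT replicate 2). Zbtb16, a zinc finger factor, fell, with 1367.4, 1338.0 and 1197.2 units in apoE-/- and 2335.8, 5230.9 and 3000.3 units in WT (-1.34 ± 0.25, adjusted p = 0.0235). WT replicate 2 was its highest array, and without that array it fell by 1.02 on the log2 scale (adjusted p = 0.00772). The call was lost without apoE-/- replicate 1 (adjusted p = 0.0940), apoE-/- replicate 3 (0.101) and WT replicate 3 (0.0632), with no intensity trend (0.0569), with the median of probe sets (0.0567) and by the ordinary statistic (0.241). Its 2 other probe sets, at -0.93 (adjusted p = 0.128) and -0.35 (adjusted p = 0.469), did not pass. Lcn2, a lipocalin made by many inflamed tissues, rose, with 6483.4, 2102.5 and 3092.5 units in apoE-/- and 82.4, 123.5 and 107.7 units in WT (adjusted p = 4.68e-04, and 0.161 by the ordinary statistic). Its WT mean of 104.5 units was below the filter level, so it was tested only because of its apoE-/- values, and no fold is given. Of 13 immediate early genes, 0 were called, with a median of 0.30 (0.10 without WT replicate 2) and the smallest p for Egr3 (0.69 ± 0.22, adjusted p = 0.150).

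The genes most like Arntl and Dbp over the 6 arrays were found by Pearson's r of log2 values, as a description over 6 arrays that share their genotype groups. Outside the lists, those nearest to Arntl were Pofut1 (r = 0.994), Spata31d1d (0.99) and Zscan18 (0.987), and those most opposed were Fam189a1 (-0.986), A530053G22Rik (-0.983) and Ppp2r1b (-0.982). Those nearest to Dbp were Mrpl15 (0.997), Dnph1 (0.987) and Tax1bp3 (0.982), and those most opposed were Khsrp (-0.993), Xpo6 (-0.99) and Nap1l3 (-0.978). Of 12957 genes compared, 54 had r above 0.95 with Arntl and 23 with Dbp. The levels of Pofut1 moved only between 1093.3 and 1153.8 units in apoE-/- and between 989.4 and 1216.8 units in WT. Lowest values of Spata31d1d, Zscan18, Fam189a1, A530053G22Rik and Dnph1 were 117.5, 87.2, 109.1, 102.7 and 79.2 units, below the filter level of 119.1 units. The r given were picked as the extremes of 12957 genes over 6 arrays and were not tested.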

How the data were processed

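RNA of 6 aorta samples was measured on Affymetrix mouse arrays. The deposited table holds 1 linear intensity per probe set and array, scaled by the authors to a common trimmed mean of 500.002 units (tested on the values). The software that made it is not given in the sources used here. Symbols came from the platform annotation; control probe sets (64) were left out. Values were taken as log2(intensity + 16), which understates changes of dim genes, and the lower 40% of probe sets by mean log2 value was removed (27022 kept). Each gene was read by its kept probe set of highest mean. The genotype comparison used limma (version 3.58.1, under R 4.3.3; eBayes with an intensity trend, two-sided) and Benjamini-Hochberg adjustment over all 13031 genes, or over all kept probe sets where a further probe set is named. The fit was tested on simulated data. With 3 arrays a group an exact permutation test cannot go below 0.1, so none is given, and the number of arrays limits precision.

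The clock genes, the lists and the tests were chosen with earlier results of these data known. Named genes are all 10 members, up to 4 called genes of each list or the one with the smallest p, and the 3 genes most like and most opposed to Arntl and to Dbp. Nr1d1, Nr1d2, Nfil3, Rora, Ciart and Tspan4 were named after their values were seen. The alternatives tried were quantile normalization, log offsets of 1 and 64, centring on array medians, other filters, no trend, array weights, the median of probe sets, a replicate block, an ordinary two-sample statistic and leaving out each array. The spread within genotypes without WT replicate 2 was added after seeing the data. Promoter sequences are RefSeq's on GRCm38.p6, found for 9 of 10 members.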

Additional observations from a re-analysis of the deposited data

How the results depend on the processing

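In all 17 alternatives 0 of the 10 clock genes passed (9 with the stricter filter, which removed Cry1), with a lowest adjusted p of 0.0891, and 0 of their probe sets passed in the 16 that apply to probe sets. Their signs were less stable. Clock, Per1, Per2 and Tef stayed below 0 in every alternative run, whereas the sign turned in 1 for Cry2 and Dbp, 3 for Arntl, 4 for Per3, and 5 for Npas2 and Cry1. The sign of Arntl, Cry1, Cry2 and Dbp turned without WT replicate 2. The number of genes called overall was 473, but 309 with no intensity trend, 301 with the replicate block, 0 with the ordinary two-sample statistic (2069 at an unadjusted p under 0.05, against 2394 in limma), and 155 to 701 when single arrays were left out. Of 64 tested pathway genes 4 were called, where 3.63% of all genes were. That count was 2 with no intensity trend, 2 with the median of probe sets, 0 with the ordinary statistic, and 1 to 5 when single arrays were left out. Causes were not tested beyond the smaller number of arrays. Deviations from the genotype means did not go together in same-numbered arrays (r = -0.104, -0.181 and -0.052), and r of the other pairs ran from -0.143 to 0.212. The labels do not say what the replicate numbers stand for. With 3 arrays a group, these r cannot show whether same-numbered arrays share a batch or day. The replicate block called 0 clock genes, as did every other fit, so that count cannot show whether a batch bears on them. The table holds no detection calls, so Ciart and the dimmest probe sets are not shown to be above background.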

Other observations

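Leaving WT replicate 2 aside, Arntl and Dbp had the same arrays at opposite ends of the other 5. On apoE-/- replicate 1 Arntl was the lowest of the 5 (973.1 units) and Dbp the highest (2294.7 units). On WT replicate 3 Arntl was the highest (1504.4 units) and Dbp the lowest (916.1 units). Between these ends the order did not reverse, as apoE-/- replicate 3 was next to the lowest for both (1017.1 and 1088.5 units). The dimmer Arntl probe set was lowest on apoE-/- replicate 3 (189.3 units) and highest on WT replicate 3 (309.0 units). The arrays at the ends belong to different genotypes, the order was noticed after the values were seen, and it was not tested.

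Cirbp, an RNA-binding protein induced by cool temperature whose transcript follows the daily body temperature in mouse tissues, was named after its values were seen. It read 820.4, 3013.4 and 1703.1 units in apoE-/- aorta, against 1309.4, 974.3 and 2413.6 units in WT aorta. It varied within both genotypes by more than between them (log2 difference 0.15, adjusted p = 0.894), and its lowest WT value was on WT replicate 2.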
